A study of Mus musculus with 6 samples.

Results

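The melanocortin and neuropeptide Y (NPY) feeding circuit of the arcuate nucleus (ARC) was followed here through 9 genes, taken by symbol from the 24015 genes counted in each sample. They are the peptide genes of POMC and AgRP neurons, *Pomc*, *Cartpt*, *Agrp* and *Npy*, the melanocortin receptors *Mc3r* and *Mc4r*, and the NPY receptors *Npy1r*, *Npy2r* and *Npy5r*. RNA sequencing was performed on ARC dissected by hand from adult female mice, of a mixed CD-1, 129P2 and C57BL/6 background by the labels and of CD-1 and 129P2 by the methods of the study. The 3 control samples carried floxed *Esr1* alleles (*Esr1* fl/fl) without Cre, and the 3 mutant samples, *Esr1* Nkx2-1Cre, carried the same floxed alleles with Cre. Cre was driven by *Nkx2-1*, which is active across the medial basal hypothalamus, so that estrogen receptor alpha (ERα) was deleted in the ventromedial nucleus and in many ARC cell types, and not in the feeding circuit alone. The comparison asks how the ARC transcriptome differs when ERα is absent.

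POMC neurons release α-MSH, a product of the *Pomc* precursor that activates melanocortin receptors and lowers food intake, and many of them also make CART peptide from *Cartpt*. AgRP neurons release AgRP, which blocks the same receptors, together with NPY, and drive feeding. Estrogens lower food intake in female rodents, and ERα is present in part of the POMC neurons.

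The control libraries summed to 14747944, 17877137 and 14046798 counts and the mutant libraries to 11792440, 15741681 and 15166356, in the order of replicates 1, 2 and 3 that is kept for every value given per sample. Levels are given as CPM, a gene's counts scaled to 1000000 counts on the tested genes, after TMM scaling, which uses a factor that corrects for differences in library composition. At these depths 3 counts corresponded to between 0.175 and 0.248 CPM. No molecular identifiers are named for these reads, which are then not independent molecules, and the floor covers counting error only. The labels number the samples of a genotype without naming animals, whereas a legend of the study counts them as females. Taken from the labels alone, the p-values measure the spread between these samples, which may be technical. Fold changes are mutant against control, on the log2 scale, with the standard error (SE) and a 95% interval from edgeR's quasi-likelihood fit. A gene was called when its p-value, adjusted by the Benjamini-Hochberg method over all 15236 genes tested, was under 0.05. For a single value, the smallest p that exact two-sided permutation of 3 and 3 samples allows is 0.1.

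*Esr1* itself checked the labels. It had 64.5, 57.5 and 48.5 CPM in controls and 11.8, 9.55 and 7.06 CPM in mutants (log2 fold change −2.59, SE 0.18, adjusted p = 0.000884 by edgeR). *Greb1*, a known ERα target, had 15.9, 16.2 and 16.4 CPM in controls and 5.61, 5.15 and 6.40 CPM in mutants (−1.50, SE 0.15, adjusted p = 0.00387). *Pgr*, the progesterone receptor gene and another ERα target, was at 110, 123 and 117 CPM against 64.1, 80.9 and 80.3 CPM (−0.64, SE 0.10, adjusted p = 0.0567 by edgeR). By DESeq2 the adjusted p of *Pgr* was 6.69e-05, under the threshold. All 3 genes had lower values in each mutant than in any control. *Esr2*, the gene of the other nuclear estrogen receptor, had at most 0.533 CPM in a sample and was not tested.

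Markers of tissue around the ARC differed between dissections. The 11 listed pituitary genes summed to 778, 12.7 and 511 CPM in control replicates 1, 2 and 3 and to 599, 532 and 472 CPM in the mutants, so that control replicate 2 stood apart. *Cga*, the most abundant of them with a mean of 371 CPM, was at 3.26 CPM there and at 372 CPM or more in the other 5 libraries, and *Tshb* and *Pitx1* were low in the same library, at 1.92 and 0.233 CPM. Of the defining markers, *Pax7*, *Pou1f1* and *Gh* stayed at 0.646 CPM or less in all 6. The 7 genes of the ventromedial nucleus summed to 176, 431 and 305 CPM in controls and 229, 496 and 579 CPM in mutants, with *Gda* the most abundant, ahead of *Adcyap1* and *Cbln1*. Of these 7 genes 6 had a positive log2 fold change, and the median was 0.89. Those sums were low in replicate 1 of both genotypes and overlapped between genotypes. By edgeR, DESeq2 and limma voom 0 of the 8 pituitary genes and 0 of the 7 ventromedial genes tested were called, with 1 of each list at an unadjusted p under 0.05, beside 8.85% of all tested genes. These were *Tbx19* (log2 fold change −1.17) and *Tac1* (−0.55), the only ventromedial gene with a negative value, and both were lower in every mutant than in any control. With a replicate block edgeR called *Tbx19* (adjusted p = 0.0440) and *Cbln1* (adjusted p = 0.0435), beside 123 calls over all genes. Left out, control replicate 2 changed no direction among the 9 genes.

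All 4 peptide genes had a higher mean level in the mutants, and among them only the samples of *Cartpt* did not overlap between genotypes. That direction held for the 4 under RLE scaling, and for *Agrp* it turned without control replicate 3 (log2 fold change −0.0103). *Pomc*, the precursor gene of α-MSH and β-endorphin, had 145, 220 and 155 CPM in controls and 267, 192 and 219 CPM in mutants. The highest control exceeded the 2 lowest mutants, so the groups overlapped. Its log2 fold change was 0.38 (SE 0.18, 95% interval −0.04 to 0.80, adjusted p = 0.597 by edgeR). *Pomc* is also transcribed in the pituitary. It was at 220 CPM in control replicate 2, whose pituitary genes summed to 12.7 CPM, and between 145 and 267 CPM in the other 5 libraries, whose sums were 472 CPM or more, and the part of pituitary tissue in the level of *Pomc* in those libraries was not tested. Without control replicate 2 the log2 fold change of *Pomc* was 0.59 (adjusted p = 0.142 by edgeR, in a range of 0.142 to 0.789 over 12 alternative analyses).

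*Cartpt*, which encodes the CART peptides, had 208, 209 and 201 CPM in controls, a narrow range, and 369, 239 and 274 CPM in mutants. Every mutant lay above every control, with mutant replicate 1 the highest. This was a log2 fold change of 0.52 (SE 0.14, 95% interval 0.19 to 0.84), a level 42.9% higher with an interval of 14.1% to 78.9%. Its adjusted p was 0.300 by edgeR, above the threshold of 0.05, and 0.0381 by DESeq2, with a range of 0.0381 to 0.555 over 12 alternative analyses. Without control replicate 2 the log2 fold change was 0.53.

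*Agrp*, which encodes the antagonist of melanocortin receptors, had 39.0, 34.3 and 26.3 CPM in controls and 39.0, 30.1 and 40.0 CPM in mutants. The groups overlapped almost completely. For *Agrp* the log2 fold change was 0.13 (SE 0.16, 95% interval −0.23 to 0.49, adjusted p = 0.869 by edgeR), an interval that leaves room for a level 14.8% lower or 40.8% higher. *Npy*, whose peptide AgRP neurons release beside AgRP, had 158, 112 and 134 CPM in controls and 194, 151 and 153 CPM in mutants. Control replicate 1 lay above mutant replicates 2 and 3, and the log2 fold change was 0.30 (SE 0.14, 95% interval −0.02 to 0.62, adjusted p = 0.590 by edgeR). Without control replicate 2 it was 0.18 for *Npy* and 0.15 for *Agrp*.

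*Pomc*, *Cartpt*, *Npy* and the receptor gene *Npy2r* were each highest in mutant replicate 1. The 4 listed genes of other ARC neurons also summed highest there, to 558 CPM against 315 and 395 CPM in the other mutants and 265, 290 and 295 CPM in the controls. *Tac2*, which encodes neurokinin B, was the most abundant of these, ahead of *Ghrh* and *Th*. It supplied 281 CPM of that sum in mutant replicate 1, and *Ghrh*, *Th* and *Gal* were also highest there. The study counts *Tac2* among its changed genes and describes repression by estrogen for markers of the same neurons. The part of the deletion itself in the level of *Tac2* was not tested. By edgeR or limma voom 0 of the 4 were called, beside 0.118% and 0.131% of all genes. *Tac2* alone had an unadjusted p under 0.05, beside 8.85%, and was called by DESeq2, beside 1.26%. All 4 had a positive log2 fold change, with a median of 0.45. The part of this marker difference in the high peptide levels of mutant replicate 1 was not tested. Without mutant replicate 1 the log2 fold change was 0.24 for *Pomc*, 0.32 for *Cartpt* and 0.17 for *Npy*. In tissue RNA, fewer cells of a type and less RNA per cell cannot be told apart, for the peptides and for the receptors alike.

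Both melanocortin receptor genes had lower mean levels in the mutants. *Mc3r*, whose receptor is made in the ARC and sits on AgRP neurons among others, had 21.6, 22.9 and 19.9 CPM in controls and 14.5, 15.5 and 17.6 CPM in mutants. Every mutant lay below every control. The log2 fold change was −0.44 (SE 0.13, 95% interval −0.72 to −0.16), a change of −26.2% that did not pass by edgeR (adjusted p = 0.300) or by DESeq2 (adjusted p = 0.253, with a range of 0.208 to 0.728 over 12 alternatives). Without control replicate 2 it was −0.39.

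*Mc4r*, the receptor gene through which α-MSH chiefly limits food intake and which is best known from neurons outside the ARC, was measured on few counts. Its counts were 36, 57 and 17 in the controls and 8, 26 and 18 in the mutants, or 2.41, 3.32 and 1.22 CPM against 0.660, 1.63 and 1.20 CPM. Control replicate 3 lay below mutant replicate 2, so the groups overlapped. The log2 fold change of −0.98 had an SE of 0.45 and a 95% interval from −1.99 to 0.03 (adjusted p = 0.571 by edgeR), and without control replicate 2 it was −0.62. The 5 genes listed for the paraventricular nucleus, where *Mc4r* neurons are well described, summed to 8.91, 26.7 and 6.96 CPM in the controls and 12.0, 29.9 and 42.6 CPM in the mutants, with *Avp*, *Oxt* and *Trh* the most abundant. These sums overlapped between genotypes, and 0 of the 4 genes tested were called by edgeR, DESeq2 or limma voom. An unadjusted p under 0.05 was found for 0 of the 4, beside 8.85% of all tested genes. Their median log2 fold change was 0.76. *Trh* was the exception in sign, at −0.52, and lower in every mutant than in any control. Among the controls *Mc4r* and the sum stood in the same order, highest in replicate 2 and lowest in replicate 3. Among the mutants both were lowest in replicate 1, while the sum was highest in replicate 3 and *Mc4r* in replicate 2. The part of paraventricular tissue in the level of *Mc4r* was not tested.

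The NPY receptor genes divided by direction. *Npy1r*, the receptor through which NPY inhibits POMC neurons and promotes feeding, had 83.5, 96.3 and 77.3 CPM in controls and 69.6, 53.5 and 56.3 CPM in mutants. Every mutant lay below every control, and mutant replicate 1 came nearest to them. The log2 fold change was −0.52 (SE 0.12, 95% interval −0.79 to −0.25), a change of −30.3% with an interval of −42.2% to −16.0%. The adjusted p was 0.169 by edgeR and 0.0175 by DESeq2, with a range of 0.0175 to 0.604 over 12 alternatives. Without control replicate 2 the log2 fold change was −0.43.

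*Npy2r*, which encodes the receptor by which NPY restrains the neurons that release it, had 160, 143 and 195 CPM in controls and 252, 213 and 236 CPM in mutants. Every mutant lay above every control. The log2 fold change was 0.49 (SE 0.12, 95% interval 0.23 to 0.75), a level 40.8% higher with an interval of 17.5% to 68.7%. The adjusted p was 0.182 by edgeR and 0.0145 by DESeq2, with a range of 0.0145 to 0.465 over 12 alternatives. Without control replicate 2 the log2 fold change was 0.40. *Npy5r*, another receptor gene linked to NPY-driven feeding, had 23.0, 24.1 and 19.7 CPM in controls and 21.8, 16.0 and 14.0 CPM in mutants. Mutant replicate 1 fell within the controls, and the log2 fold change was −0.38 (SE 0.17, 95% interval −0.75 to 0.00092, adjusted p = 0.561 by edgeR). For *Npy5r* it was −0.32 without control replicate 2, −0.57 without mutant replicate 1 and −0.25 without mutant replicate 3.

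**Figure D1:**
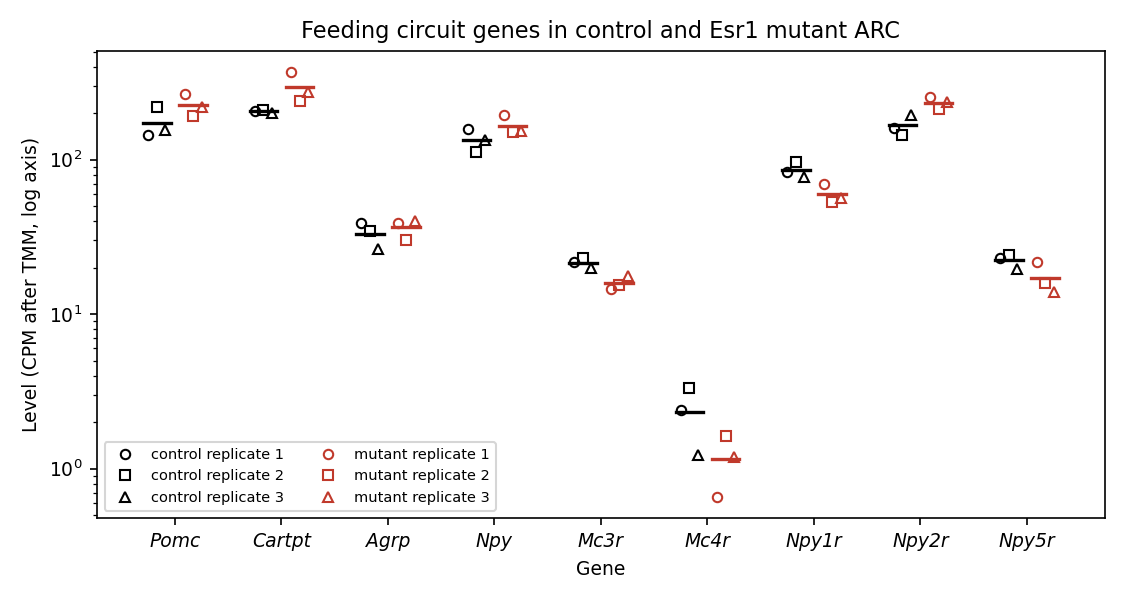
Level of each of the 9 genes in CPM after TMM scaling (vertical log axis) in 3 control (black) and 3 *Esr1* Nkx2-1Cre (red) samples, with a marker shape per replicate and a line at each group mean. The groups do not overlap for *Cartpt*, *Mc3r*, *Npy1r* and *Npy2r*, and *Mc4r* lies lowest, between 0.660 and 3.32 CPM.

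By edgeR 0 of the 9 genes were called, beside 0.118% of the 15236 genes tested, and 4 of the 9 had an unadjusted p under 0.05, beside 8.85% of tested genes. By DESeq2 3 of the 9 were called, *Cartpt* and *Npy2r* higher and *Npy1r* lower, beside 1.26% of the 15105 genes with an adjusted p from that tool. By limma voom 0 were called, beside 0.131% of the genes tested. When edgeR was run on the 22495 genes that any sample counted at least 1 time, 2 of the 9 were called, *Npy1r* and *Npy2r*, each at an adjusted p of 0.0339, beside 0.471% of these genes. Samples of the genotypes did not overlap for 4 of the 9 genes, beside 15.8% of all tested genes. In 2 of these, *Mc3r* and *Npy1r*, the mutants were lower, as in 7.88% of tested genes, and in the other 2, *Cartpt* and *Npy2r*, they were higher, as in another 7.88%. Over all tested genes the log2 fold change had a median of 0.0036, against 0.34 for the 4 peptide genes. The 2 melanocortin receptor genes had a median of −0.71, between −0.44 for *Mc3r* and −0.98 for *Mc4r*, which rested on few counts. For the 3 NPY receptor genes it was −0.38, the value of *Npy5r*, with *Npy1r* at −0.52 and *Npy2r* at 0.49.

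**Figure D2:**
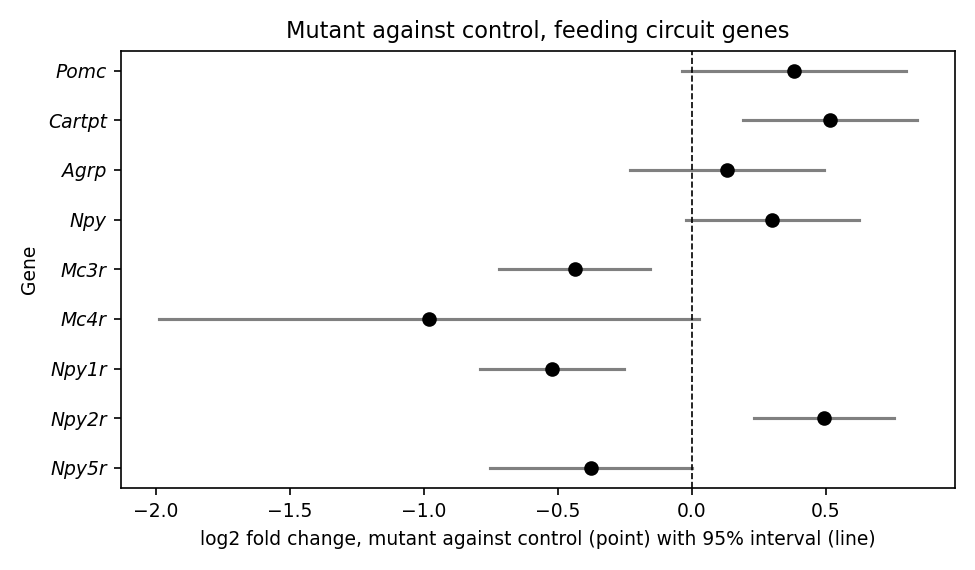
Log2 fold change of each gene in *Esr1* Nkx2-1Cre against control ARC (point, horizontal axis) with its 95% interval from edgeR (line), from 3 samples per genotype, and a dashed line at 0. The intervals of *Cartpt*, *Mc3r*, *Npy1r* and *Npy2r* leave out 0, and none of the 9 passed edgeR's adjusted threshold.

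A ratio of counts within a sample does not depend on the scaling between libraries. *Npy2r* had 1.92, 1.49 and 2.52 counts for each count of *Npy1r* in the controls and 3.62, 3.99 and 4.20 in the mutants. The lowest mutant ratio exceeded the highest control ratio. The difference in mean log2 ratio was 1.02, a 2.03-fold higher ratio, and the exact two-sided permutation test gave p = 0.1, the smallest it can give, or 0.7 after adjustment over the 7 ratios computed. The difference lay between 0.84 and 1.22 when each sample was left out in turn. The other 6 ratios overlapped between genotypes. *Npy* had 4.04, 3.27 and 5.12 counts per count of *Agrp* in the controls, a range that held all 3 mutants, and *Cartpt* had 1.43, 0.948 and 1.29 counts per count of *Pomc* against 1.38, 1.25 and 1.25. For *Npy5r* against *Npy1r*, neighbours in the genome, the ratio was 0.276, 0.251 and 0.254 in the controls and 0.313, 0.298 and 0.249 in the mutants.

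**Figure D3:**
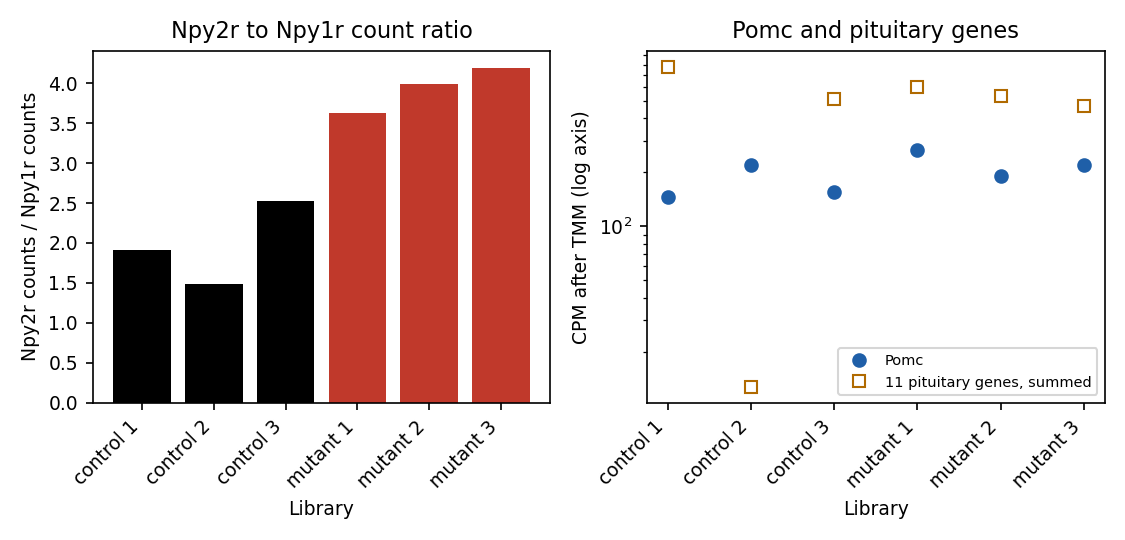
Left, counts of *Npy2r* divided by counts of *Npy1r* in each library, controls in black and mutants in red, at 2.52 or less in the controls and 3.62 or more in the mutants. Right, level of *Pomc* (filled circles) and the sum of 11 pituitary genes (open squares) in CPM on a log axis, with control 2 low in the pituitary sum, 12.7 CPM, and not in *Pomc*, 220 CPM.

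Levels of different genes were compared per kilobase of annotated exon. In the controls the mean was 238 ± 40.5 CPM per kilobase (SD, n = 3) for *Npy*, 235 ± 4.95 for *Cartpt* and 172 ± 40.3 for *Pomc*. *Agrp* followed at 50.3 ± 9.77 and *Npy2r* at 49.4 ± 7.85, then *Npy1r* at 28.5 ± 3.22, *Npy5r* at 9.63 ± 1.01, *Mc3r* at 8.19 ± 0.584 and *Mc4r* at 0.840 ± 0.381 CPM per kilobase. The control samples of *Npy* overlapped with those of *Cartpt* and *Pomc*, those of *Agrp* with *Npy2r*, and those of *Npy5r* with *Mc3r*. In the mutants *Cartpt* had the highest mean, 336 ± 76.7, ahead of *Npy* at 293 ± 43.2 with overlapping samples, and *Npy2r*, at 69.5 ± 5.80, lay above *Agrp*, at 55.2 ± 8.30, in all 3 mutant samples. *Npy2r* was thus the most abundant receptor gene of the circuit per length in both genotypes.

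Across the 6 samples, *Pomc* and *Cartpt*, which many POMC neurons make together, had a Pearson's r of 0.80 for log2 CPM (exact permutation p = 0.0569, 0.229 after adjustment over 6 pairs) and a Spearman's rho of 0.77 (exact permutation p = 0.103, adjusted 0.350). Its r was 0.78 without control replicates 1 and 3, the samples farthest from the median, and 0.63 for deviations from the genotype means. *Cartpt* and *Npy*, which mark different neurons, had nearly the same r, 0.79 (exact permutation p = 0.0764, adjusted 0.229), with a rho of 0.54 (exact permutation p = 0.297, adjusted 0.446). That r was 0.35 without mutant replicates 1 and 3 and 0.60 for deviations from the genotype means. For *Agrp* and *Npy*, which AgRP neurons make together, r was 0.46 (exact permutation p = 0.363, adjusted 0.468) and rho 0.66 (exact permutation p = 0.175, adjusted 0.350). Without control replicate 3 and mutant replicate 2 that r was 0.83, and for deviations from the genotype means it was 0.36. The other 3 pairs had an r of 0.53 (*Cartpt* and *Agrp*, above that of *Agrp* and *Npy*), 0.42 (*Pomc* and *Agrp*) and 0.28 (*Pomc* and *Npy*), with exact permutation p-values of 0.279, 0.390 and 0.638 and adjusted values of 0.468, 0.468 and 0.638, and a rho of 0.71, 0.43 and 0.09, with exact permutation p-values of 0.136, 0.419 and 0.919 and adjusted values of 0.350, 0.503 and 0.919. Without the 2 samples farthest from the median these r were −0.05, 0.75 and 0.54, so that the sign turned for *Cartpt* and *Agrp*. For deviations from the genotype means they were 0.49, 0.31 and −0.22, so that it turned for *Pomc* and *Npy*. None of the 6 pairs of peptides passed. *Agrp* was lowest in control replicate 3 and *Npy* in control replicate 2.

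Among 9806 genes with a mean of at least 10 CPM, those whose log2 CPM followed each peptide most closely over the 6 samples were, by Pearson's r and with no test, *Wscd1* (0.98), *Ufsp2* (0.97) and *Shc4* (0.96) for *Pomc* and *Supv3l1* (0.99), *Aifm1* (0.98) and *Pcsk1* (0.98) for *Cartpt*. For *Agrp* they were *Rpe*, *Pcsk7* and *Hbs1l* (each 0.97), and those for *Npy* included *Vegfa* and *Wdr11* (each 0.99). *Pcsk1*, the gene of a protease that cuts peptide precursors, had 67.7, 64.9 and 59.4 CPM in controls and 111, 74.6 and 77.7 CPM in mutants. Its likeness to *Cartpt* over these samples is what selected it.

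Other genes of the pathway were read from lists. Precursors of the 4 peptides are cut and modified by shared enzymes, and 7 of 7 such genes were tested. By edgeR and limma voom 0 were called, 3 had an unadjusted p under 0.05, beside 8.85% of all tested genes, and DESeq2 called 1, *Cpe*, beside 1.26%. *Cpe*, the carboxypeptidase that trims peptides after the cut, had 1171, 970 and 922 CPM in controls and 1380, 1372 and 1411 CPM in mutants (log2 fold change 0.44, SE 0.10, adjusted p = 0.163 by edgeR). Every mutant lay above every control there, as they did for *Pcsk1* and for *Scg5*, the chaperone gene of prohormone convertase 2, whose log2 fold change was 0.24. These were 3 of the 7 genes, beside 7.88% of all tested genes. *Pam*, the amidating enzyme gene that completes α-MSH, NPY and other peptides, overlapped between genotypes (0.10). The median over the 7 genes was 0.10.

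The rest of the melanocortin system gave no call with edgeR, DESeq2 or limma voom, beside 0.118%, 1.26% and 0.131% of all genes. Of 11 listed genes 6 were tested, with 0 at an unadjusted p under 0.05, beside 8.85% of all tested genes. Their median log2 fold change was −0.03. *Gnas*, which encodes the G protein subunit that couples melanocortin receptors to cyclic AMP, had a log2 fold change of −0.11, *Atrn* −0.03 and *Sdc3* 0.04. The remaining receptor genes *Mc1r*, *Mc2r* and *Mc5r*, the antagonist gene *Asip* and the accessory gene *Mrap* were too low to test, at 0.799 CPM or less in every sample. Of 5 other genes listed with the NPY family and present in the counts, 1 was tested. This was *Dpp4*, not a ligand or receptor gene of the family but the gene of a protease that shortens NPY. Its log2 fold change was −0.05, with no call by the 3 tools nor an unadjusted p under 0.05. *Npy4r* had 0.670, 0.524 and 1.15 CPM in controls and 0.165, 0.377 and 0.200 CPM in mutants and was too low to be tested, and *Npy6r* reached at most 0.413 CPM.

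Receptors through which hormones and transmitters reach these neurons were tested for 9 of 9 genes, with 0 called by edgeR or limma voom, 2 at an unadjusted p under 0.05, beside 8.85% of all tested genes, 1 called by DESeq2, beside 1.26%, and a median of −0.02. The most abundant, *Nr3c1*, *Insr* and *Cnr1*, had log2 fold changes of 0.13, −0.01 and 0.20. *Oprm1*, the μ-opioid receptor gene, named after its values were seen, was the gene DESeq2 called, with 31.9, 33.4 and 32.4 CPM in controls and 20.9, 23.4 and 23.1 CPM in mutants (−0.53, SE 0.10, adjusted p = 0.0736 by edgeR). Of 9 transcription factor genes of POMC and AgRP neurons, all tested, 0 were called by edgeR and 1 each by DESeq2 and limma voom, with 2 at an unadjusted p under 0.05 and a median of −0.07, beside the same shares of all genes. *Tbx3*, *Foxo1* and *Stat3*, the most abundant, had log2 fold changes of −0.07, 0.02 and 0.01. The gene called by both tools was *Nhlh2*, a basic helix-loop-helix factor tied to body weight, and it and *Bsx*, a homeobox factor of AgRP neurons, were named after their values were seen. *Nhlh2* had 23.3, 18.4 and 21.7 CPM in controls and 10.7, 6.16 and 6.00 CPM in mutants (−1.48, SE 0.22, adjusted p = 0.0567 by edgeR). *Bsx* was at 9.05, 7.91 and 7.10 CPM against 5.20, 4.77 and 3.33 CPM (−0.86, SE 0.22, adjusted p = 0.215 by edgeR).

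The 5 AgRP neuron markers, led by *Npy*, *Acvr1c* and *Agrp*, summed to 302, 265 and 238 CPM in the controls and 352, 267 and 290 CPM in the mutants, with a median log2 fold change of 0.06. The 5 POMC neuron markers, led by *Cartpt*, *Tbx3* and *Pomc*, summed to 717, 745 and 677 CPM against 1003, 721 and 758 CPM, with log2 fold changes from −0.30 to 0.52 and a median of −0.00066, which is the value of *Prdm12*. EdgeR and limma voom called 0 of either list, and 1 gene, *Cartpt*, had an unadjusted p under 0.05, beside 8.85% of all tested genes, and was called by DESeq2, beside 1.26%. The 7 neuronal markers, led by *Snap25*, *Syt1* and *Stmn2*, summed to 3485, 4471 and 4386 CPM in the controls and 3805, 5258 and 4809 CPM in the mutants and overlapped. The 4 genes of the lateral and dorsomedial hypothalamus, led by *Ppp1r17*, *Pmch* and *Npvf*, overlapped as well, at 12.4, 12.3 and 20.4 CPM against 12.0, 21.2 and 14.3 CPM. The medians were 0.09 for the neuronal and 0.57 for the lateral and dorsomedial list, in which *Ppp1r17*, the most abundant, had a log2 fold change of −0.30 and the other 3 genes, each with a mean of 2.67 CPM or less, had positive values. In both lists 0 genes were called by edgeR, DESeq2 or limma voom or had an unadjusted p under 0.05.

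Oligodendrocyte genes separated the genotypes. The 6 genes reported summed to 401, 600 and 325 CPM in the controls and 798, 814 and 794 CPM in the mutants, and each of the 6 was higher in every mutant than in any control, as were 7.88% of all tested genes, with a median log2 fold change of 0.95. *Mbp*, *Cnp* and *Mobp* were the most abundant of them, and *Cldn11* was called by edgeR (log2 fold change 1.27, adjusted p = 0.0313). DESeq2 called 4 of the 6, beside 1.26% of all genes it adjusted, limma voom called 1, beside 0.131%, and all 6 had an unadjusted p under 0.05, beside 8.85%. *Cartpt* and *Npy2r* were higher and *Mc3r* and *Npy1r* lower in the same samples, and the part of a different makeup of the dissected tissue in these differences was not tested.

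In the GENCODE annotation of NCBIM37, the assembly also called mm9, all 9 genes had a single match and none overlapped with another annotated gene. *Npy5r* is on the minus strand of chromosome 8, from 69203864 to 69211993, and *Npy1r* from 69221321 to 69230697 on the plus strand, so these receptor genes are neighbours read away from each other, with 9327 bases between them. Both had lower mean levels in the mutants, with groups that overlapped for *Npy5r* and not for *Npy1r*. *Npy2r* is on the minus strand of chromosome 3, from 82342305 to 82352008, and *Cartpt* on that of chromosome 13, from 100668439 to 100670638. *Pomc* is on chromosome 12 from 3954951 to 3960618 on the plus strand, *Npy* on chromosome 6 from 49772709 to 49779506 on the plus strand and *Agrp* on the minus strand of chromosome 8 from 108090600 to 108092198. *Mc3r*, on chromosome 2 from 172073992 to 172076614 on the plus strand, and *Mc4r*, on the minus strand of chromosome 18 from 67017369 to 67020126, each consist of a single exon.

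Promoter sequences from RefSeq on the assembly GRCm38.p6 matched 7 of the 9 genes by symbol, all but *Agrp* and *Mc4r*. They were searched on both strands, from upstream of the annotated transcription start to shortly after it, for letters known from estrogen and cyclic AMP response. The estrogen response element, GGTCA and TGACC with any 3 bases between them, was in 0 of the 7 and in 0.0700% (23) of 32851 promoters of the same length. GGTCA on its own, the core of that element and a part of it, was in 3 of the 7, *Pomc*, *Cartpt* and *Mc3r*, and in 40.5% of all. The cyclic AMP response element TGACGTCA was in *Cartpt*, starting 112 bases before the transcription start, and in 1.79% of all promoters. TATAAA was in *Pomc*, starting 25 bases before its start, and in 13.6% of all. A match is a description of the letters and not of binding, and no match says only that these letters are not in the window.

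The upstream stretches of the 4 genes whose samples did not overlap between genotypes are printed to set those that were higher in the mutants, *Cartpt* and *Npy2r*, beside those that were lower, *Mc3r* and *Npy1r*. They are chr13:99900684-99900933 on the minus strand, chr3:82548086-82548335 on the minus strand, chr2:172248242-172248491 on the plus strand and chr8:66697172-66697421 on the plus strand, in GRCm38.p6, each written 5′ to 3′ in the direction of its gene and ending at the base before the transcription start. Capitals mark TGACGTCA and, on either strand, GGTCA, which reads TGACC on the opposite strand.
*Cartpt*: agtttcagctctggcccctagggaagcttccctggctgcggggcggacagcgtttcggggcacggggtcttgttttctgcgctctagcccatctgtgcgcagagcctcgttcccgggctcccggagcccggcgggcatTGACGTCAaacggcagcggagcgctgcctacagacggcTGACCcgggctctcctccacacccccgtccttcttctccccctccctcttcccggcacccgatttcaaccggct
*Npy2r*: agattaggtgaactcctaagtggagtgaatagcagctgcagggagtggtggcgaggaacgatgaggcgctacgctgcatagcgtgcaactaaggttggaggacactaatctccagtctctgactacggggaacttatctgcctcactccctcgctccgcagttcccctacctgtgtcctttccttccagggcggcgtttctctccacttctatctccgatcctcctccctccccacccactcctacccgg
*Mc3r*: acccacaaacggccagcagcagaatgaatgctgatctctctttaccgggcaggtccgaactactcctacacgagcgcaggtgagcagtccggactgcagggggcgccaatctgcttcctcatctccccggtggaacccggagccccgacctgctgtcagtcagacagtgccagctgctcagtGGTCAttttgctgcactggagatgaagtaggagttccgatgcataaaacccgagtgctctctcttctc
*Npy1r*: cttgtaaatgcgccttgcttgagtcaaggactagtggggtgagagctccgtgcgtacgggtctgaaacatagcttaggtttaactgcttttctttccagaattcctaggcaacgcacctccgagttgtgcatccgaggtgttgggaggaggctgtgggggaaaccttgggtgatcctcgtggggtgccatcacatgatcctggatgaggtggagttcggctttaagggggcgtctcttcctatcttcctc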

How the data were processed

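Sequencing libraries were made from amplified ARC RNA of 3 control and 3 *Esr1* Nkx2-1Cre samples, all female. The authors deposited unnormalized counts of reads on each of 24015 genes. The submitters' processing notes name TopHat2 2.1.0, HTSeq 0.6 and the genome build mm9. The methods of the study give a build name that mixes NCBI37 with a later assembly, and positions here come from the annotation, not from the counts. Whether reads were counted by strand is not given in the sources used here.

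Counts were analysed in R 4.3.3 with edgeR 4.0.16 (quasi-likelihood test with robust dispersions, TMM, default filter on low counts), DESeq2 1.42.0 and limma 3.58.1. Log2 fold changes are unshrunk coefficients, and adjusted p-values are Benjamini-Hochberg over all genes tested. Chi-square per degree of freedom between samples was 6.90 to 31.2, so no pair agreed within sampling noise. Exon lengths are unions over the GENCODE transcripts of NCBIM37. *Asip* is listed in the counts under its older symbol.

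The members and lists were chosen with earlier results of these data known. The genes named were the 9 members, *Esr1*, *Greb1*, *Pgr* and *Esr2*, of each pathway or marker list those called by edgeR and the 3 with the highest mean CPM, and for each peptide the 3 genes of at least 10 CPM with the highest Pearson's r. Of the genes this takes, 1 oligodendrocyte marker, also left out of that list's values, and 1 gene that followed *Npy* are not reported here. Genes outside this rule are named for a count of 5 or fewer or after their values were seen. Alternatives were RLE normalization, DESeq2, limma voom, filters of at least 1 count in any sample and at least 10 counts in every sample, a replicate block, each sample left out and, for levels, plain and RLE-scaled CPM.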

Additional observations from a re-analysis of the deposited data

How the results depend on the processing

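Over all genes, edgeR called 18 and 0 of the 9 circuit genes. DESeq2 called 191 (97 higher, 94 lower) and 3, and the filter of at least 1 count in any sample 106 (49 higher, 57 lower) and 2. A replicate block gave 123 calls (69 higher, 54 lower) and 1 of the 9, *Npy2r* (log2 fold change 0.50, adjusted p = 0.0356), with edgeR. Residuals of samples with the same number correlated at 0.27, 0.05 and −0.02. The value for replicate 1 was the highest between any control and any mutant. Control replicate 2 correlated best with mutant replicate 3 (0.20). Whether the numbers pair the samples was not tested. Leaving out each sample in turn gave 7 to 46 calls over all genes, 46 without control replicate 2, 9 without mutant replicate 2 and 7 without mutant replicate 3, and 0 of the 9. The causes were not tested.

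Of 107 fold changes of the 9 genes under alternatives, 100 kept their direction and side of the threshold, 6 passed it newly and 1 reversed, *Agrp* without control replicate 3 (−0.0103, the lowest of a range to 0.26 with each sample left out). The filter of at least 10 counts in every sample removed *Mc4r*. Of 42 ratio differences 1 reversed, *Cartpt* to *Pomc* without control replicate 2 (−0.0735 on the log2 scale, the lowest of a range to 0.22). With plain or RLE-scaled CPM, 36 of 36 mean levels moved by less than 1 SD. With each sample left out, log2 fold changes ranged from 0.40 to 0.62 for *Npy2r*, −0.64 to −0.43 for *Npy1r*, 0.32 to 0.64 for *Cartpt*, −0.52 to −0.38 for *Mc3r*, −1.31 to −0.62 for *Mc4r*, −0.57 to −0.25 for *Npy5r*, 0.24 to 0.59 for *Pomc* and 0.17 to 0.43 for *Npy*. *Mc4r* rested on few counts, 8 to 57 in a sample, and the part of depth in its spread was not tested.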

Other observations

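*Tbx19*, the T-box factor that activates *Pomc* in pituitary corticotrophs, was named after its values were seen. It had 9.51, 6.57 and 5.67 CPM in controls and 5.03, 2.39 and 2.40 CPM in mutants, lower in every mutant than in any control, with a log2 fold change of −1.17 (SE 0.33, adjusted p = 0.291 by edgeR). In control replicate 2, where *Cga* was at 3.26 CPM, *Tbx19* was at 6.57 CPM, and the part of pituitary tissue in its level was not tested. *Pomc* had a positive log2 fold change over the same samples, 0.38, so the factor gene and the peptide gene had opposite signs. Neither passed by edgeR or DESeq2, whereas with the replicate block *Tbx19* did, at an adjusted p of 0.0440 by edgeR.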
